A study of Mus musculus with 12 samples.

Results

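The liver X receptors, LXRβ (Nr1h2) and LXRα (Nr1h3), and 6 of their sterol and lipid targets (Abca1, Abcg1, Srebf1, Mylip, Lpcat3 and Scd1) were examined for H3K27ac in newborn mouse hearts. H3K27ac, acetylation of histone H3 at lysine 27, marks promoters and enhancers in use. These 8 genes were taken by name from 21887 protein-coding genes of a RefSeq table, and a called peak was assigned to a gene when it lay in the gene body or within 10 kb of it. All 8 carried called peaks in every heart and were among the 14317 loci with enough covered length to test. ChIP-seq had been run on whole hearts at postnatal day 0 (P0) from 3 wild-type mice (WT, numbered 1, 3 and 4) and 3 mice with RXRab-/- in cardiomyocytes only (edKO, numbered 1, 3 and 6). Each heart is a separate animal with a peak list called on that heart alone. The deletion is restricted to cardiomyocytes, so the other cells of an edKO heart keep Rxra and Rxrb, and how the deletion was driven is not given in the sources used here. In whole hearts, fewer cells of a type and less of the mark per cell cannot be told apart.

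LXRs are nuclear receptors that sense oxysterols, the oxidised derivatives of cholesterol. They bind DNA as heterodimers with RXR, at pairs of AGGTCA-like hexamers, and induce genes that move cholesterol out of the cell (Abca1, Abcg1), lower its uptake (Mylip), turn on fatty acid synthesis (Srebf1, Scd1) and remodel membrane phospholipids (Lpcat3). RXR is the obligate partner in this pair, and the heterodimer can respond to ligands of either receptor.

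The promoter table (RefSeq, GRCm38.p6, the same build as mm10, 250 bases before to 50 after each listed start) had entries for 6 of the 8 genes, with 9 listed starts. The sequences shown are those where the search for an LXR element met a match inside a called region. The element was written as AGGTCA, 4 bases of any kind, and AGGTCA again, and it was searched on both strands. With up to 2 mismatches it matched in 0 of the 9 promoters and in 3.02% of all 32851 entries. With up to 3 mismatches, an allowance chosen after that result was seen, it matched in 2 of the 9 promoters, a share close to the 21.9% of all entries. These were the Abca1 promoter and the most downstream of the 3 listed Srebf1 starts. The promoters are shown on the strand of the gene, which is the minus strand for both, with the matched elements and a CACGTG (E-box) match in capitals.
Abca1 promoter, chr4:53159846-53160145: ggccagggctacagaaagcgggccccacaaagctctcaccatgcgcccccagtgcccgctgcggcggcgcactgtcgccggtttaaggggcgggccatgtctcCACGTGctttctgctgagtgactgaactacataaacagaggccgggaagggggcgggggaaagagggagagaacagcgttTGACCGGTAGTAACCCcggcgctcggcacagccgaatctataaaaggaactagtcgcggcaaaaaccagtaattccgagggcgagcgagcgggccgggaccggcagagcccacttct
Srebf1 downstream start, chr11:60210422-60210721, with a CCAAT box match (read ATTGG) also in capitals: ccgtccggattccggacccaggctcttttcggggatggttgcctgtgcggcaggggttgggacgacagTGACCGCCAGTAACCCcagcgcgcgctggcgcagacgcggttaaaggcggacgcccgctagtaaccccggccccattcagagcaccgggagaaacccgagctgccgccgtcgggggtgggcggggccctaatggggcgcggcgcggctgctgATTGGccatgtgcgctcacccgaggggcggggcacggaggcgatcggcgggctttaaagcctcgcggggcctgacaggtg

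Read on the plus strand, both elements held the same hexamers, GGGTTA and CGGTCA, and differed only in the 4 bases between them. That exact pair of hexamers occurred in 3 of the 32851 promoter entries (0.00913%), and the third was Fasn (fatty acid synthase, another LXR target), a gene noticed after the search was run. The pair was read off the Abca1 and Srebf1 matches, so these 2 entries count by construction and the share does not measure how rare the match is. The elements are set side by side because the 3 genes are all known LXR targets, with the hexamers in capitals and the spacer in lower case.
Abca1, chr4:53159947-53159962, at -67 from the listed start: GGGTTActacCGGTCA
Srebf1, chr11:60210638-60210653, at -182 from the listed start: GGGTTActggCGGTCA
Fasn, chr11:120824757-120824772, at -225 from the listed start: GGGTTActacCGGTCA
A called peak covered each of these elements in all 3 WT and all 3 edKO hearts. LXR elements of this form in the promoters of Abca1, Srebf1 and Fasn are established background, whereas a match here is a description of the letters and binding was not measured. The Fasn start lay in a called region of 2898, 2866 and 2482 bp in WT 1, 3 and 4 and of 2931, 2406 and 2611 bp in edKO 1, 3 and 6, and these lengths overlap between genotypes.

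Across the 8 loci, the base pairs covered by called peaks had a lower estimate in edKO hearts at 7 loci and a higher estimate at 1 locus (Nr1h2), and none passed the test at an adjusted p of 0.05. Differences are given as log2(covered bp + 200), edKO minus WT, centred per heart so that each heart has the same average over loci covered in all 6 hearts. They come from limma with genotype as the only term, fitted over all 14317 loci. In that fit 15 loci (0.105%) were called lower in edKO hearts and 0 (0%) higher. At an unadjusted p of 0.05, limma found 2 of the 8 loci lower, Srebf1 and Abcg1, against 4.62% of all loci. The median difference of the 8 loci was -0.18, beside 0.03 over all loci, and 41.5% of all loci lay below 0. In base pairs, the highest edKO heart was below the lowest WT heart at 4 loci (Abcg1, Srebf1, Mylip and Lpcat3), against 6.50% of all loci. After centring this held at 3 loci (Abcg1, Srebf1 and Lpcat3), against 5.78% of all loci, and the opposite order held at Nr1h2, against 7.11%. The edKO 3 list covers the least sequence of the 6 (47874433 bp, beside 59076784 to 68260351 bp in the other hearts), and edKO 3 had the lowest covered length at 6 of the 8 loci.

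**Figure D1:**
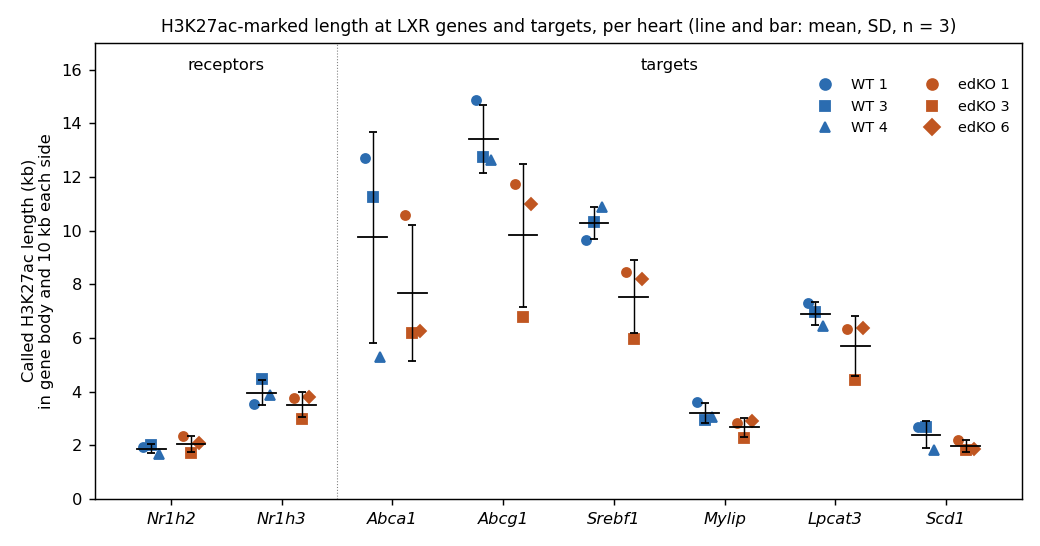
Called H3K27ac length (kb) in the gene body and its 10 kb flanks for the 2 receptor and 6 target genes, with 1 point per heart and the mean and SD of 3 hearts per genotype as line and bar. The edKO hearts (orange) sit below the WT hearts (blue) without overlap at Abcg1, Srebf1, Mylip and Lpcat3, and the WT hearts spread most at Abca1.

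Of the receptors, Nr1h2 (chr7:44549616-44553968), the broadly expressed LXRβ, had 2 called regions in every heart. Its covered length was 1921, 2000 and 1675 bp in WT 1, 3 and 4 and 2331, 1716 and 2082 bp in edKO 1, 3 and 6. The genotypes overlapped in base pairs, with means of 1865 ± 170 bp in WT and 2043 ± 309 bp in edKO hearts (SD, n = 3 each). The centred difference was 0.20 ± 0.10 (SE), with an adjusted p of 0.801 in limma. The region over its start held the stronger peak and measured 1006 to 1137 bp in WT and 950 to 1124 bp in edKO hearts. The other region lay 578 bp beyond the lower end of the gene, over an end of Pold1, the gene of the catalytic subunit of DNA polymerase delta, and measured 669 to 863 bp in WT and 766 to 1207 bp in edKO hearts. With each called region given whole to 1 gene body only, the nearest or the one it overlaps most, the Nr1h2 difference was 0.03.

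Nr1h3 (chr2:91184061-91202829), the LXRα gene, which macrophages, liver and adipose tissue express most, had 3 to 6 regions in WT and 3 to 4 in edKO hearts. Called peaks covered 3550, 4450 and 3872 bp in WT 1, 3 and 4 and 3765, 2977 and 3779 bp in edKO 1, 3 and 6, and the genotypes overlapped. After centring the difference was -0.08 ± 0.11 (SE), with an adjusted p of 0.901 in limma. It was -0.17 without WT 1, -0.04 without WT 3 or WT 4 and -0.05 without edKO 1, and 0.05 with stricter lists (entries with a −log10 q of at least 5). The region over its 2 listed starts (chr2:91194511-91195516) measured 961, 787 and 847 bp in WT 1, 3 and 4 and 783, 601 and 768 bp in edKO 1, 3 and 6. Every edKO length there was below every WT length, but not after centring. The longest region of the locus (chr2:91201719-91203643) lies over the upper end of the gene, where Acp2, a lysosomal acid phosphatase gene, begins or ends. It measured 1513 to 1676 bp in WT and 1533 to 1925 bp in edKO hearts, so it did not share the order seen at the listed starts.

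Srebf1 (chr11:60199084-60224186) encodes SREBP-1, the transcription factor that turns on fatty acid synthesis, and had the smallest p of the 8 loci. Its covered length was 9661, 10301 and 10881 bp in WT 1, 3 and 4 and 8462, 5965 and 8193 bp in edKO 1, 3 and 6. The genotypes did not overlap, with means of 10281 ± 610 bp in WT and 7540 ± 1371 bp in edKO hearts (SD, n = 3 each). The centred difference was -0.37 ± 0.11 (SE), with an unadjusted p of 0.0119 and an adjusted p of 0.517 in limma. Srebf1 was also the most densely marked of the 8 loci, with 19.8% of its window covered on average. Its gene body held 6379 to 6593 bp of called sequence in WT and 3918 to 5550 bp in edKO hearts. Part of the window belongs to the neighbours Rai1 and Tom1l2, and the flanks held 3228 to 4288 bp in WT and 2047 to 2912 bp in edKO hearts. With each called region given to its nearest gene body alone, the Srebf1 difference was -0.31, with an adjusted p of 0.746 in limma.

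The 3 listed starts of Srebf1 lay in 3 separate regions, each called in all 6 hearts. The 2 upstream starts were in regions of 1348 to 1566 bp in WT and 1036 to 1495 bp in edKO hearts (chr11:60222173-60223848) and of 1573 to 1787 bp in WT and 1343 to 1842 bp in edKO hearts (chr11:60219346-60221218). Both overlapped between genotypes. The region at the downstream start (chr11:60208157-60211589), whose promoter is printed above, measured 3294, 3026 and 3136 bp in WT 1, 3 and 4 and 2213, 1539 and 2517 bp in edKO 1, 3 and 6. The longest edKO length was below the shortest WT length, also after centring. As background, the downstream promoter of this gene gives the SREBP-1c isoform, the isoform that LXR induces. In the 3 WT hearts and in edKO 1 the region was a single unbroken piece, whereas in edKO 3 and edKO 6 it was called as 2 pieces. In edKO 3 the gap between the pieces (chr11:60210455-60210573) held the listed start itself, so a peak covered that start in 3 WT and 2 edKO hearts.

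Srebf1 also had the only region of the 8 loci called in all WT and no edKO heart, against 1.08% of all 79293 merged regions. It lies 3923 bp beyond the upper end of the gene, inside Tom1l2 (an endosomal trafficking gene), at chr11:60228109-60229151. It measured 962 bp in WT 1, 257 bp in WT 3 and 243 bp in WT 4, so it was short in 2 of the 3 hearts that had it. With the stricter lists it no longer counted (0 regions). A region missing from a list was not called there, which does not mean that the mark was absent.

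Abcg1 (chr17:31057694-31117984) encodes a transporter that passes cholesterol to high-density lipoprotein. Called peaks covered 14869, 12729 and 12636 bp in WT 1, 3 and 4 and 11719, 6780 and 10986 bp in edKO 1, 3 and 6. The genotypes did not overlap, with means of 13411 ± 1263 bp in WT and 9828 ± 2665 bp in edKO hearts (SD, n = 3 each). The centred difference was -0.39 ± 0.13 (SE), with an unadjusted p of 0.0203 and an adjusted p of 0.601 in limma. Without edKO 3, the lowest heart, it was -0.27. The mark filled 14.5% of the window on average and lay almost wholly inside the gene, where 12517 to 14627 bp were covered in WT and 6780 to 11719 bp in edKO hearts.

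Among the Abcg1 regions, the largest difference in mean length was at a long intragenic region (chr17:31070026-31076348), 12332 bp from the lower end of the gene. It measured 5956, 5896 and 5684 bp in WT 1, 3 and 4 and 4775, 2258 and 4786 bp in edKO 1, 3 and 6, and the genotypes did not overlap, also after centring. It was a single piece in WT 1 and WT 3 and 3 pieces in WT 4, against 2, 3 and 7 pieces in edKO 1, 3 and 6. The number of regions at the locus therefore ran the other way from the covered length, with 9, 6 and 12 regions in WT 1, 3 and 4 and 7, 9 and 15 regions in edKO 1, 3 and 6. Counted as regions, the Abcg1 difference was 0.26 on the log2(regions + 1) scale. The next region (chr17:31077244-31080777) measured 2499 to 3149 bp in WT and 2396 to 3482 bp in edKO hearts, and that at the lower end of the gene (chr17:31057452-31061604) 3128 to 3600 bp in WT and 1862 to 3138 bp in edKO hearts. Both overlapped between genotypes.

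Abca1 (chr4:53030789-53159988), the transporter that loads cholesterol onto apolipoprotein A-I, differed more within genotypes than between them. The lists covered 12690, 11264 and 5284 bp in WT 1, 3 and 4 and 10593, 6183 and 6253 bp in edKO 1, 3 and 6. WT 1, WT 3 and edKO 1 were high and WT 4, edKO 3 and edKO 6 were low, so this order cuts across genotype. The centred difference was -0.20 ± 0.30 (SE), with an adjusted p of 0.910 in limma, and single hearts moved it widely: 0.02 when WT 1 was left out, -0.09 for WT 3, -0.53 for WT 4, -0.37 for edKO 1 and -0.04 for edKO 6. The region over the listed start, which holds the element printed above, measured 1780, 1789 and 1943 bp in WT 1, 3 and 4 and 1869, 1434 and 1656 bp in edKO 1, 3 and 6, and varied much less than the locus. The spread came from intragenic regions such as chr4:53116044-53119025, with 2891, 2460 and 740 bp in WT 1, 3 and 4 and 2090, 894 and 823 bp in edKO 1, 3 and 6.

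Mylip (chr13:45389742-45411940) encodes IDOL, a ubiquitin ligase that lowers the uptake of cholesterol. The lists covered 3629, 2950 and 3040 bp in WT 1, 3 and 4 and 2845, 2259 and 2909 bp in edKO 1, 3 and 6. All edKO values were below all WT values in base pairs, though the gap was small (2909 against 2950 bp) and was not kept after centring. The estimate was -0.16 ± 0.12 (SE), with an adjusted p of 0.857 in limma, and it was -0.09 without WT 1 and -0.26 without WT 3. The mark sat at the 5′ end of the gene, in a region over the listed start of 1396 to 1556 bp in WT and 1001 to 1478 bp in edKO hearts and a second of 1484 to 1657 bp and 1258 to 1492 bp beginning 1130 bp downstream.

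Lpcat3 (chr6:124663094-124704716) encodes the enzyme that places polyunsaturated fatty acids into membrane phospholipids. Its covered length was 7306, 6967 and 6440 bp in WT 1, 3 and 4 and 6316, 4414 and 6363 bp in edKO 1, 3 and 6, without overlap. The estimate was -0.20 ± 0.10 (SE), with an adjusted p of 0.798 in limma. Part of this window belongs to other genes: a region over Emg1 (ribosome assembly) and Phb2 (a mitochondrial prohibitin) measured 1816 to 2395 bp in WT and 1910 to 2460 bp in edKO hearts and overlapped between genotypes. Within the Lpcat3 gene body, 3703 to 3827 bp were covered in WT and 2005 to 3235 bp in edKO hearts, and the difference there was -0.38, with an adjusted p of 0.696 in limma. The region over the Lpcat3 start measured 1676 to 1925 bp in WT and 1064 to 1711 bp in edKO hearts, and after centring every edKO heart was below every WT heart. A further intragenic region (chr6:124699925-124700777) was called in the 3 WT hearts and in edKO 6 alone of the edKO hearts.

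Scd1 (chr19:44394450-44407709) encodes stearoyl-CoA desaturase, which makes oleic from stearic acid. Called peaks covered 2675, 2691 and 1832 bp in WT 1, 3 and 4 and 2212, 1819 and 1856 bp in edKO 1, 3 and 6, and the genotypes overlapped. After centring the difference was -0.17 ± 0.14 (SE), with an adjusted p of 0.871 in limma. It was -0.10 without WT 1, -0.09 without edKO 6 and -0.28 without WT 4, and -0.00 with stricter lists. Inside the gene body called sequence was present in WT 3 alone (294 bp), and no list had a peak there in the other 5 hearts. A region beginning 202 bp beyond the upper end of the gene was called in 5 hearts but not in edKO 1. It measured 640, 518 and 472 bp in WT 1, 3 and 4 and 425 and 421 bp in edKO 3 and 6. These edKO lengths were below every WT length, and the share of all regions with this order was not counted. The other region ended 4660 bp from the lower end (1360 to 2035 bp in WT and 1394 to 2212 bp in edKO hearts). Called sequence thus lay mostly outside the Scd1 gene body. The promoter table had no entry for Scd1, so whether the nearer region lies at its start was not examined.

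**Figure D2:**
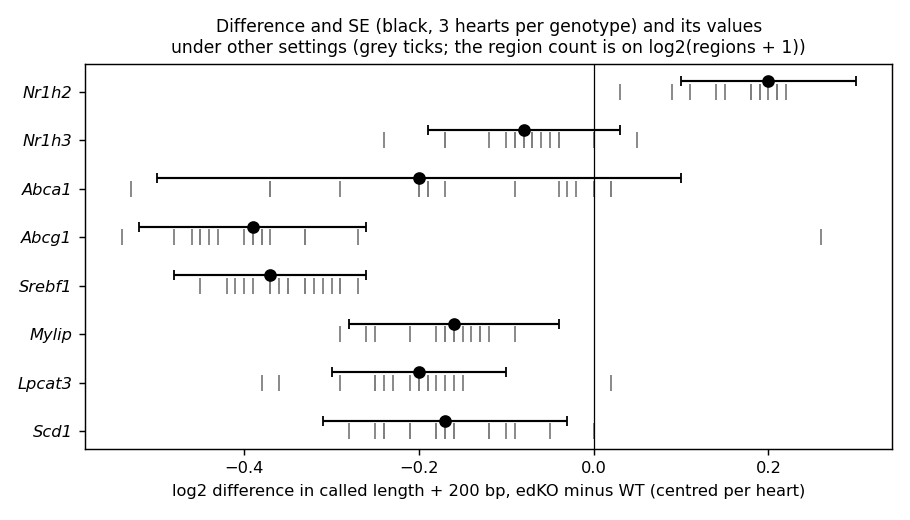
Log2 difference in called length + 200 bp (edKO minus WT, centred per heart) for the 8 loci, with the estimate and SE over 3 hearts per genotype in black and the estimate under each alternative setting as a grey tick. Srebf1 ranges from -0.45 to -0.27 and stays below 0 in all 19 alternatives, while the Abcg1 tick at 0.26 is the count of regions.

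Region by region, the 8 windows held 58 merged regions, of which 23 (39.7%, against 35.8% of all merged regions) were called in all 6 hearts and 23 (39.7%, against 32.2%) in a single heart. With stricter lists 33 regions were left, 21 of them called in all 6 hearts and 4 in a single heart. In the full lists, those called in a single heart were mostly at Srebf1 (8), Abcg1 (6) and Abca1 (5), the loci with the most regions. Of the 23 regions common to all hearts, 3 were shorter in every edKO than in every WT heart and 0 were longer in every edKO heart, against 5.99% shorter among all 28396 such regions. Those 3 were the intragenic Abcg1 region, the region at the downstream Srebf1 start and the region over the Nr1h3 starts. After centring, the Nr1h3 region dropped out and the Lpcat3 start entered, again 3 of 23, against 4.73% of all such regions. The centred comparison of single regions was added after the data were seen. With 3 hearts against 3 the smallest exact permutation p is 0.1, so no region was tested on its own.

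The authors' fold enrichment of each peak was used only as its rank within its own list, and ranks from lists of different lengths are not read as a change. The strongest Nr1h2 peak, over its start, ranked between percentiles 88.6 and 95.2. Abca1 peaked at its start in all 6 hearts, at percentiles 92.1, 93.4 and 90.2 in WT 1, 3 and 4 and at percentiles 85.4, 76.2 and 88.1 in edKO 1, 3 and 6. The intragenic Abcg1 region ranked at percentiles 90.3, 83.1 and 85.7 in WT 1, 3 and 4 and at percentiles 59.2, 50.4 and 72.0 in edKO 1, 3 and 6. It held the strongest Abcg1 peak in the 3 WT hearts and in edKO 6. The downstream Srebf1 start ranked at percentiles 87.3, 89.4 and 85.3 in WT 1, 3 and 4 and at percentiles 70.0, 38.0 and 76.6 in edKO 1, 3 and 6. The most upstream Srebf1 start (chr11:60222173-60223848), whose lengths overlapped, had the same order of ranks. It ranked at percentiles 82.6, 84.7 and 80.7 in WT 1, 3 and 4 and at percentiles 75.7, 67.2 and 66.2 in edKO 1, 3 and 6. The downstream Srebf1 region and the intragenic Abcg1 region had already been set apart by their lengths, and the share of all regions with such ranks was not counted. The strongest Srebf1 peak ranked at percentiles 87.3, 97.6 and 91.6 in WT 1, 3 and 4. In edKO 1, 3 and 6 it ranked at percentiles 94.0, 84.4 and 93.7. These ranks overlapped between genotypes, as did those of the strongest peaks at Nr1h3, Mylip, Lpcat3 and Scd1.

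**Figure D3:**
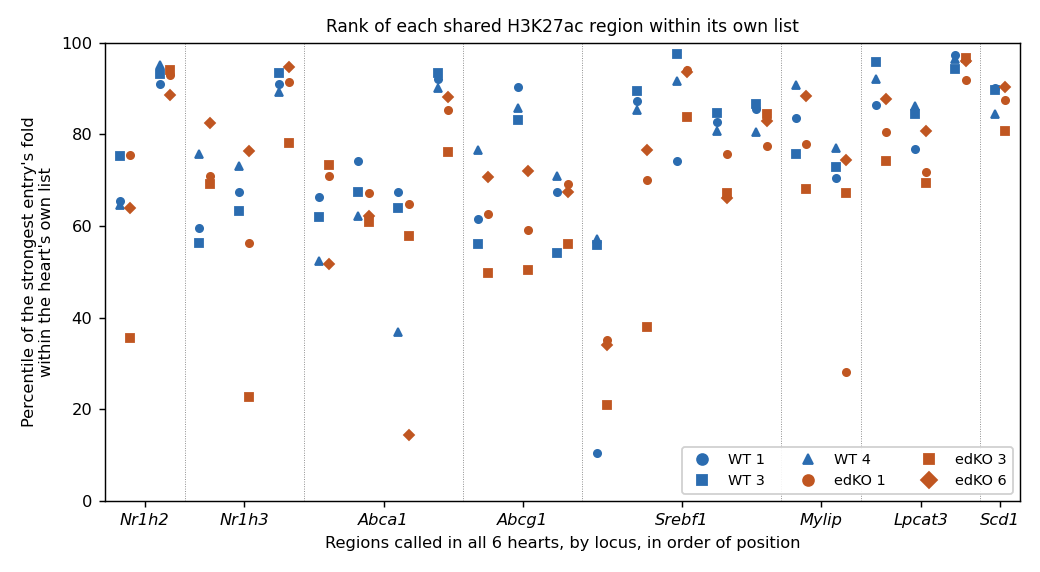
Percentile of the strongest entry's fold within each heart's own list (y axis, 0 to 100) for the 23 regions called in all 6 hearts, grouped by locus and ordered by position, with 1 point per heart. The middle Abcg1 region and the second Srebf1 region have WT points from 83.1 to 90.3 and edKO points from 38.0 to 76.6. WT points also lie above edKO points at the most upstream Srebf1 start (80.7 to 84.7 against 66.2 to 75.7) and at the Abca1 start (90.2 to 93.4 against 76.2 to 88.1). Ranks from lists of different lengths are not read as a change.

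Of the other promoter motifs searched, a CCAAT box (CCAAT, bound by NF-Y) was in 4 of the 9 listed promoters, against 37.4% of all entries. Lpcat3 held it 4 times and Mylip 3 times in the 300-base window, and Srebf1 once at each of 2 starts. The E-box CACGTG, the core of sites for SREBP-1 and other basic helix-loop-helix factors, was in 1 promoter (Abca1, at -147 from the start), against 7.15% of all entries. A single exact AGGTCA was in 0 of 9 (16.3% of all entries), a direct repeat of AGGTCA with 1 base between in 0 (3.86%, up to 2 mismatches) and the sterol regulatory element in 0 (1.95%, up to 1 mismatch). Both direct repeat patterns are built from AGGTCA, but a match with mismatches need not contain it. The matches in the printed promoters do not overlap each other. No match says only that these letters are not in the window.

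The wider sterol and lipid network was described by 5 lists of other genes, and no locus on them passed the limma test in either direction. Of 15 further LXR targets, 12 could be tested, 9 had a lower estimate (41.5% of all loci did), 2 of them at an unadjusted limma p under 0.05 (4.62% of all loci), and the median difference was -0.15. Fasn had 6406, 6276 and 6570 bp in WT 1, 3 and 4 and 5245, 3557 and 5615 bp in edKO 1, 3 and 6, a difference of -0.34 ± 0.12 (SE) with an adjusted p of 0.623 in limma. Mertk, a receptor for the uptake of dying cells, had 10569, 10041 and 8240 bp in WT 1, 3 and 4 and 6957, 6841 and 6597 bp in edKO 1, 3 and 6 (-0.39 ± 0.13 SE, adjusted p 0.582 in limma). Neither gene had overlapping genotypes, but both were named for the smallest p of their list. At 6.50% of all loci every edKO heart was below every WT heart in base pairs. Lpl (lipoprotein lipase), the longest covered locus of the list, differed by -0.13. Abcg5 and Abcg8, the sterol transporters of liver and intestine, had no called peak in any heart.

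Among 27 genes of cholesterol synthesis and SREBP-2 response, 26 were tested, 16 had a lower estimate (41.5% of all loci), 3 of them at an unadjusted limma p under 0.05 (4.62% of all loci), and the median was -0.06. Srebf2, which encodes SREBP-2 and is the counterpart of Srebf1 for cholesterol synthesis, had 6529, 6883 and 7253 bp in WT 1, 3 and 4 and 4779, 2700 and 5421 bp in edKO 1, 3 and 6. The genotypes did not overlap (every edKO heart was below every WT heart at 6.50% of all loci). The difference was -0.62 ± 0.17 (SE), with an adjusted p of 0.411 in limma. Hmgcs1 (HMG-CoA synthase) differed by -0.54, with an adjusted p of 0.593 in limma. Of 14 genes of sterol uptake, storage and transport, 13 were tested, 8 had a lower estimate, 1 of them at an unadjusted limma p under 0.05, beside the same 41.5% and 4.62% of all loci, and the median was -0.01. Npc1, which exports cholesterol from lysosomes, had 6959, 8581 and 8731 bp in WT 1, 3 and 4 and 4516, 2568 and 3870 bp in edKO 1, 3 and 6. These do not overlap (the same 6.50% of all loci), and the difference of -1.05 ± 0.15 (SE) had an adjusted p of 0.0676 in limma, just short of the threshold. Scarb1 (the HDL receptor) differed by -0.28 and Stard3 (a lysosomal sterol transfer protein) by -0.20.

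The enzymes that make or clear oxysterols, the LXR ligands, could be tested at 4 of 6 loci, where 2 had a lower estimate (41.5% of all loci) and the median was 0.03, and Cyp7a1 and Sult2b1 had no called peak in any heart. Ch25h (cholesterol 25-hydroxylase) differed by -0.14 and Cyp46a1 (cholesterol 24-hydroxylase) by 0.17. Of 12 desaturases, elongases and acyl-remodelling enzymes, all 12 were tested, 9 had a lower estimate (41.5% of all loci), 1 of them at an unadjusted limma p under 0.05 (4.62% of all loci), and the median was -0.16. Scd4, a desaturase paralog of Scd1 known from the heart, differed by -1.80 ± 0.29 (SE), with an adjusted p of 0.104 in limma. Lpcat1 differed by 0.23 and Mboat2 by -0.17. At the genes of the LXR partner itself, Rxra had 11157, 15540 and 18868 bp in WT 1, 3 and 4 and 15107, 8682 and 18432 bp in edKO 1, 3 and 6, and differed by -0.06, with an adjusted p of 0.968 in limma. Rxrb differed by -0.00, with an adjusted p of 0.999 in limma. Rxrg had too little called sequence to test. Covered length of H3K27ac over a gene does not check whether its coding exons were deleted.

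**Figure D4:**
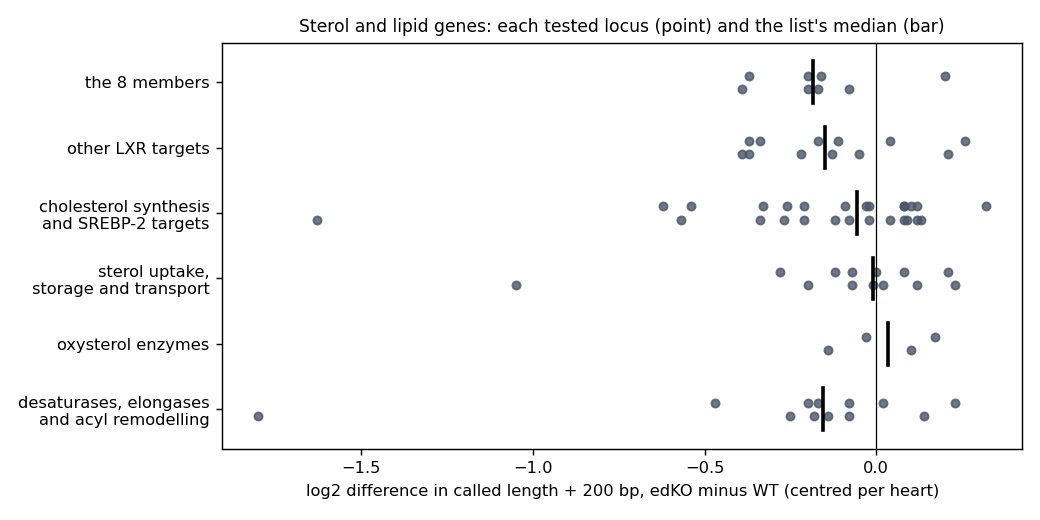
Log2 difference in called length + 200 bp (edKO minus WT, centred per heart) of each tested locus in the 8 LXR genes and the 5 sterol and lipid lists, with the median of each list as a bar. The medians run from -0.18 in the 8 LXR genes to 0.03 in the oxysterol enzymes, and the points farthest below 0 are Scd4 (-1.80), Sqle (-1.63, squalene epoxidase) and Npc1 (-1.05). Sqle had an SE of 0.76 and an adjusted p of 0.780 in limma. Its covered length overlapped between genotypes, with 2382, 2269 and 1185 bp in WT 1, 3 and 4 and 0, 415 and 1832 bp in edKO 1, 3 and 6.

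The tissue label was compared with markers. All 10 cardiomyocyte markers had called sequence, with sums of 201416 to 210361 bp in WT and 153276 to 213453 bp in edKO hearts. LXRs also act in macrophages, for which 3 of 10 markers could be tested (Spi1, Cd68 and Tyrobp). The macrophage sums were 14687 to 18546 bp in WT and 12294 to 17297 bp in edKO hearts. Spi1 gave most of each sum, with 8820 to 11458 bp in WT and 7643 to 11331 bp in edKO hearts. Whether its called regions belong to neighbouring genes was not examined. The defining genes Adgre1, Cx3cr1, Lyz2 and Ptprc were at 0 in every heart. The other 3 had short called stretches in WT hearts and 0 in every edKO heart: Mrc1 had 389, 325 and 585 bp in WT 1, 3 and 4, Csf1r 0, 409 and 226 bp, and C1qa 0, 196 and 63 bp. All 3 fell below the average of 500 bp needed for a test. The edKO 1 and 3 lists had 80673 and 80182 entries and the edKO 6 list 114098, against 102178 to 111137 in WT hearts. A missing call does not mean that the mark was absent, and the share of all loci with this pattern was not counted. Summed marker lengths overlapped between genotypes for endothelial cells (53203 to 71589 bp in WT and 44111 to 74988 bp in edKO hearts), fibroblasts (24506 to 48145 and 33379 to 38710 bp) and smooth muscle cells and pericytes (12717 to 18203 and 11926 to 19523 bp). Adipocyte markers summed to 5171 to 6604 bp in WT and 5355 to 6679 bp in edKO hearts, with Ucp1 and Lep at 0. Erythroid markers summed to 3166 to 3819 bp in WT and 1509 to 3247 bp in edKO hearts (Hba-a1, Hbb-bt and Alas2 at 0), and hepatocyte markers to 6016 to 7663 and 4843 to 8096 bp (Alb and Serpina1a at 0). On the centred scale used for the LXR genes, 41.5% of all loci had a lower estimate and the median over all loci was 0.03. On that scale 8 of 10 cardiomyocyte markers had a lower estimate (median -0.09). A higher estimate was found at 6 of 7 fibroblast (median 0.13), 5 of 7 endothelial (median 0.12) and 6 of 6 smooth muscle and pericyte markers (median 0.21). Limma called none of these markers. At an unadjusted limma p under 0.05 there was 1 of the 7 endothelial markers, Tie1 (0.38, higher in edKO hearts, adjusted p 0.734 in limma). There were 0 of the 10 cardiomyocyte, 7 fibroblast and 6 smooth muscle and pericyte markers. The share of all loci that were higher at that unadjusted p was not counted. The part of cell makeup in the values at the LXR genes was not tested.

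The loci whose covered length ran most like Srebf1 over the 6 hearts, on other chromosomes, were Crat (carnitine acetyltransferase, Pearson r = 0.993), Bicra (a chromatin-remodelling subunit, r = 0.990) and Trp53bp2 (r = 0.988). Crat had 7993, 8458 and 11703 bp in WT 1, 3 and 4 and 6135, 3815 and 5463 bp in edKO 1, 3 and 6. For Abcg1 they were Flvcr2 (r = 0.991), the receptor tyrosine kinase gene Ephb1 (r = 0.991) and Scpep1 (a serine carboxypeptidase, r = 0.989). Flvcr2 had 10247, 8523 and 8774 bp in WT 1, 3 and 4 and 8204, 4571 and 7139 bp in edKO 1, 3 and 6. These values are descriptions over 6 hearts that share their lists: r was above 0.95 with Srebf1 at 54 of 13121 loci (0.412%) and with Abcg1 at 46 of 13607 (0.338%).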

How the data were processed

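The authors deposited 1 narrowPeak list per heart, and no list pools hearts. The submitters' processing notes name cutadapt, BWA, SAMtools and MACS2 and the builds mm10 and GRCm38; their settings and versions are not given in the sources. In the deposited lists the signal is a fold enrichment (ratio) per peak and the significance a −log10 q-value, both the authors' own. Depth per heart is unknown, so no counting interval is given, and input samples were not used here. A longer list can also come from deeper sequencing.

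Entries sharing at least 1 base were merged within and between hearts. Covered bp in each gene body and its 10 kb flanks were summed, taken as log2(bp + 200), which understates changes at short loci, and centred. Loci averaging at least 500 bp were kept. The test was limma 3.58.1 (R 4.3.3), with trended and robust moderation and Benjamini-Hochberg adjustment at 0.05, tested on simulated data. Regions, ranks and figures were made in Python 3.11.15 with pandas 2.3.3, numpy 2.4.6 and matplotlib 3.10.9.

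The 8 genes, the lists and the tests were chosen with earlier results of these data known. The text names the 8 genes, the RXR genes, the 2 loci of each list with the smallest p and the longest covered one, up to 3 markers a list, and the 3 loci most like Srebf1 and Abcg1. An item that this rule would name is not reported here. Fasn as the holder of the element, Sqle, Abcg5, Abcg8, Cyp7a1, Sult2b1, Scd2, Scd3 and the markers at 0 in some or all hearts were named after their values were seen. Alternatives changed the window, the pseudocount, the filter, the scaling, the q-value of entries, the measure (regions in place of bp), the replicate block and the hearts included.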

Additional observations from a re-analysis of the deposited data

How the results depend on the processing

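In all 19 alternatives 0 of the 8 loci passed the limma test. Srebf1 stayed below 0 in every alternative, from -0.45 to -0.27 (the value without WT 4), with adjusted p from 0.460 to 0.989. Abcg1 ranged from -0.54 to -0.27 in covered length, with adjusted p of 0.277 or more, and over the alternatives that leave out a heart it ranged from -0.46 to -0.27. Counting regions in place of base pairs left 4 loci with a lower estimate, beside 7, and turned the direction at Abca1 (0.02), Abcg1 (0.26) and Lpcat3 (0.02). Abca1 ranged from -0.53 to 0.02 when each heart was left out, and reached 0.02 without WT 1. With stricter lists Abca1 and Scd1 were both at -0.00, and with lists cut to equal length Abca1 was at -0.02, Scd1 at -0.05 and Nr1h3 at -0.00. With stricter lists Nr1h3 was at 0.05 and the region called in all WT and no edKO heart was not counted (0 in place of 1). Nr1h2 could not be tested with the gene body alone or with a mean of at least 2000 bp, nor Scd1 with the gene body alone. The cause of these shifts was not tested.

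WT and edKO hearts share only the numbers 1 and 3, and by name only, so the numbers were not taken to pair animals. Deviations from the genotype means correlated at 0.18 and 0.03 for same-numbered hearts. For hearts with different numbers the correlations ran from -0.24 to 0.14. With deviations of 3 hearts around their own mean, these values cannot settle whether animals are paired. A fit with the replicate block again called 0 of the 8 loci, with Abcg1 at -0.44 and Srebf1 at -0.30. In it WT 4 and edKO 6 each had a number of their own, so its genotype differences rest on hearts 1 and 3 alone. It called 90 loci lower over the whole table, a count not comparable with the 15 of the fit on all 6 hearts. Leaving out WT 3 called 0 loci. Giving each called region to its nearest gene alone called 7 loci lower and 2 higher. Depth and the short edKO 3 list limit what the covered length can show.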

Other observations

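Scd1 lies in a cluster of 4 stearoyl-CoA desaturase genes on chromosome 19. Scd4, the paralog known from the heart, had 2677, 2344 and 2314 bp in WT 1, 3 and 4 and 1096, 323 and 339 bp in edKO 1, 3 and 6. The genotypes did not overlap there (every edKO heart was below every WT heart at 6.50% of all loci), yet the adjusted p was 0.104 in limma. Scd2, the desaturase of brain and of development, was the most widely marked of the cluster, with 8772, 8275 and 7488 bp in WT 1, 3 and 4 and 7416, 6562 and 7904 bp in edKO 1, 3 and 6, and the genotypes overlapped (difference -0.08, adjusted p 0.903 in limma). Scd3 had 1786, 1817 and 2175 bp in WT 1, 3 and 4 and 1843, 1500 and 1513 bp in edKO 1, 3 and 6 and also overlapped (-0.14, adjusted p 0.884 in limma). Whether Scd4 differs from its neighbours in its response was not tested.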
